A study of Mus musculus with 22 samples.

Results

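Stage I, the earliest of 4 sorted steps of eosinophil maturation in mouse bone marrow, was compared between mice given an antibody against interleukin 5 (IL-5) and mice given an isotype control antibody. The 6 libraries concerned, 3 anti-IL5 and 3 isotype, were taken by their titles from the 22 libraries of the series. All donors were wild type C57BL/6 mice in which eosinophilia had been raised with 400 ng of recombinant interleukin 33 (IL-33) injected into the peritoneum each day for 7 days. The anti-IL5 and the isotype antibody were both given at 400 µg on 3 consecutive days, the first on the day of the last IL-33 dose. Both groups therefore carry the IL-33 treatment, and the series as given here holds no group without it. Sex and age are not stated, nor whether the libraries of a group came from separate animals. The main test therefore sets each difference against the spread between libraries of a group, estimated over all 22 libraries. It is not known to be a spread between animals. Before sorting, marrow was cleared of cells bearing Ly6G, CD90.2, NK1.1 or CD45R. Gates then used CD117 and CD55, Siglec-F with F4/80, the paired receptors PIR-A/B, CD29 and CD200R3. Genes that encode these antigens are not independent of the sort.

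IL-5 is the cytokine that most selectively drives eosinophil expansion, differentiation and survival. It binds a receptor made of a private alpha chain, Il5ra, and the beta chain Csf2rb that it shares with the receptors for IL-3 and GM-CSF. Bound receptor activates the kinases Jak2 and Lyn and the transcription factor Stat5, which induces feedback inhibitors of the SOCS family, Pim kinases and survival genes. Eosinophil precursors are also dividing, heavily secretory cells that fill their granules with basic proteins, so their endoplasmic reticulum and ribosome production are active.

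The files held 24982 genes, 16619 of them with at least 1 count, and 12387 passed the filter on low counts and were tested. Counts on genes ran between 7401093 and 8813193 in the anti-IL5 libraries and between 8279383 and 10960321 in the isotype libraries (exact permutation test, two-sided, p = 0.4). Genes with at least 1 count numbered 13220 ± 58 under anti-IL5 and 13501 ± 285 under isotype (SD, n = 3 each), and p was 0.1, the smallest that 3 against 3 libraries allow. On a principal component analysis of the 6 libraries, the first component (37.5% of the variance) placed the anti-IL5 libraries between 26.3 and 39.2 and the isotype libraries between -40.6 and -24.7. The second (20.1%) set anti-IL5 1 at -37.9 and anti-IL5 3 at 43.5. Levels are given below as counts scaled to library size (CPM), and fold changes as log2 of anti-IL5 over isotype with their standard error (SE).

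The eosinophil label held against its markers. Epx, the eosinophil peroxidase, stood at 19545, 16017 and 19404 CPM in the anti-IL5 libraries, against 20503, 23223 and 23583 CPM in the isotype libraries. Prg2, the major basic protein, stood at 21229.7, 16930.1 and 17505 CPM under anti-IL5 and at 14127, 16901 and 16921 CPM under isotype. The summed CPM of the 12 eosinophil markers overlapped between the groups. Early progenitor genes were also present, with summed levels of 892 to 1075 CPM over Cd34, Kit, Flt3, Sox4 and Myb under anti-IL5 and 635 to 836 CPM under isotype. RNA of other myeloid cells was measurable and varied between libraries. The 5 azurophil granule genes of neutrophil precursors, Mpo among them, summed to 1009, 1904 and 5854 CPM at the lowest, median and highest anti-IL5 library and to 3701, 3846 and 5436 CPM under isotype. The 7 mature neutrophil genes, Ngp and Ltf among them, summed to 1977, 5395 and 5406 CPM under anti-IL5 and 2172, 2412 and 2860 CPM under isotype, the low anti-IL5 library being anti-IL5 1. The 5 monocyte genes summed to 1026 to 1091 CPM under anti-IL5 and 755 to 1298 CPM under isotype. For the 7 basophil and mast cell genes the sums were 752 to 1678 CPM under anti-IL5 and 952 to 1492 CPM under isotype. Erythroid genes were low, with Klf1 carrying nearly the whole sum, which was 9.52 to 20.1 CPM under anti-IL5 and 21.7 to 26.7 CPM under isotype. Hba-a1, Hbb-bs, Cd3e, Ncr1 and Tpsb2 were listed at 0 in all 6 libraries. Of the fuller marker lists for other cells, 4 members passed the test, namely Retnlg, Csf1r and Cd79a, which rose, and Cyp11a1, which fell. Csf1r lost its call without isotype 2 or anti-IL5 1 and Cd79a without isotype 1, isotype 2, anti-IL5 1 or anti-IL5 2, at an edgeR adjusted p of up to 0.0844 and 0.155. All 8 tested B lineage genes lay above 0, with a median log2 of 1.11. That list summed to 70.8 to 115.5 CPM under anti-IL5 and 36.2 to 49.9 CPM under isotype. The sums of its 4 defining markers overlapped, at 38.2 to 44.8 CPM under anti-IL5 and 32.5 to 38.9 CPM under isotype.

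Anti-IL5 changed 548 genes at stage I, 4.42% of those tested, at a Benjamini-Hochberg adjusted p under 0.05 in edgeR's quasi-likelihood test. Of these, 323 rose (2.61%) and 225 fell (1.82%). Most changes were small: 165 rises and 145 falls were under 2-fold, while 37 rises and 23 falls exceeded 4-fold. The median log2 change was 0.98 among the rises and -0.81 among the falls, beside 0.02 over all genes tested. The counts depended on single libraries, ranging from 184 without isotype 2 to 465 without isotype 1, with 255, 254 and 365 without anti-IL5 1, 2 and 3, and with 187 higher and 121 lower without isotype 3. In every one of those 6 fits 156 genes (1.26%) were called, 104 higher (0.84%) and 52 lower (0.42%), and these are named first below. In bulk RNA, a change in the kinds of cells sorted and a change in RNA per cell cannot be told apart.

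**Figure D1:**
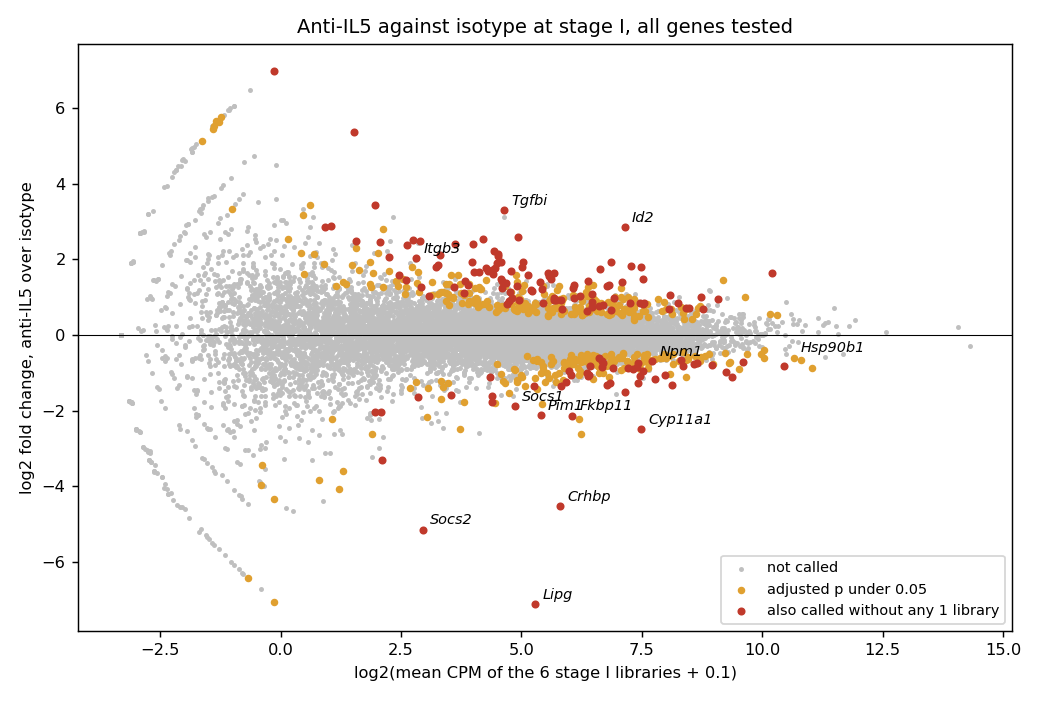
Each point is 1 of the 12387 genes tested, with log2 of its mean CPM over the 6 stage I libraries (plus 0.1) on the horizontal axis and its log2 fold change, anti-IL5 over isotype, on the vertical axis. Orange points passed an adjusted p of 0.05 and red points also passed it when any 1 of the 6 libraries was left out. Lipg, Socs2 and Crhbp have log2 changes of -7.12, -5.15 and -4.53, and Tgfbi and Id2 of 3.31 and 2.85. Grey points with larger changes than these are genes of low level.

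The largest falls among the genes named by size were in genes that were nearly silent under anti-IL5. Lipg, which encodes endothelial lipase, had 0, 0.19 and 1.36 CPM in the anti-IL5 libraries and 70.3, 95.7 and 65.5 CPM in the isotype libraries. Its log2 change was -7.12 ± 0.62 (SE), with an edgeR adjusted p of 1.37e-06. Crhbp, which encodes a secreted protein that sequesters the stress hormone CRH, had 3.91, 2.38 and 7.50 CPM under anti-IL5 and 79.1, 113 and 127 CPM under isotype, a log2 change of -4.53 ± 0.51 (adjusted p 2.05e-05). Neither gene's groups came close to overlapping. Cyp11a1, the enzyme that starts steroid synthesis from cholesterol, is also known from basophils and mast cells. It stood at 78.8, 42.0 and 41.9 CPM under anti-IL5 and 261, 294.8 and 360.5 CPM under isotype (log2 -2.50 ± 0.40, adjusted p 0.000992). The other genes tested for that cell type gave no call, and they did not move one way. Cpa3, the mast cell carboxypeptidase, had 473, 583 and 871 CPM under anti-IL5 and 708, 477 and 823 CPM under isotype. Mcpt8, a basophil protease, had 61.1, 112 and 174 CPM under anti-IL5 against 221, 218 and 321 CPM under isotype, the anti-IL5 libraries all being lower. Ms4a2, a chain of the IgE receptor, was also lower in all anti-IL5 libraries, with 30.6, 59.2 and 79.6 CPM against 96.3, 114 and 114 CPM under isotype. Prss34, a further basophil protease, was higher in all of them, with 126, 136 and 404 CPM against 108, 79.2 and 125 CPM under isotype. Fcer1a, which encodes the IgE-binding chain, overlapped, with 61.2, 137 and 149 CPM under anti-IL5 and 69.8, 64.4 and 108 CPM under isotype. The part of basophil RNA in the Cyp11a1 result was not tested.

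Listed targets of Stat5 leaned down but did not all fall. Of 22 tested members of the list, 3 fell and 2 rose, beside 1.82% and 2.61% of all genes. All 5 were called in every fit without 1 library. Values lay below 0 for 15 members and above 0 for 7, with a median log2 of -0.59. Whether and in which direction Stat5 acts on each listed gene in these cells was not tested. Socs2, a feedback inhibitor of cytokine receptors at chr10:95383903-95417321 (mm10), had 0.237, 0.0952 and 0.877 CPM in the anti-IL5 libraries and 14.5, 17.2 and 13.02 CPM in the isotype libraries, a log2 change of -5.15 ± 0.56 (edgeR adjusted p 1.74e-05). Socs1, a related inhibitor of Jak kinases at chr16:10783808-10785536, had 18.9, 9.61 and 8.96 CPM under anti-IL5 and 39.8, 55.8 and 41.6 CPM under isotype (log2 -1.88 ± 0.30, adjusted p 0.000791). Pim1, a survival kinase at chr17:29490785-29496111, had 25.6, 10.9 and 11.1 CPM under anti-IL5 against 81.5, 71.1 and 52.4 CPM under isotype (log2 -2.12 ± 0.30, adjusted p 0.000239). In each of the 3, every anti-IL5 library lay below every isotype library, and anti-IL5 1 was the highest of its group for Socs1 and Pim1. Cish, a further feedback inhibitor, averaged 5.02 ± 3.72 CPM under anti-IL5 and 11.7 ± 1.39 CPM under isotype (SD, n = 3 each) and did not pass (log2 -1.25 ± 0.39, adjusted p 0.0736). The risers were Id1, with 324, 245 and 155 CPM under anti-IL5 and 64.3, 69.5 and 69.3 CPM under isotype (log2 1.83 ± 0.27, adjusted p 0.000365), and Bcl6. Bcl6, a repressor that competes with Stat5 for binding sites, was low in both groups, at 2.61, 6.19 and 5.75 CPM under anti-IL5 and 0.814, 0.104 and 1.604 CPM under isotype (log2 2.50 ± 0.50, adjusted p 0.00538).

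**Figure D2:**
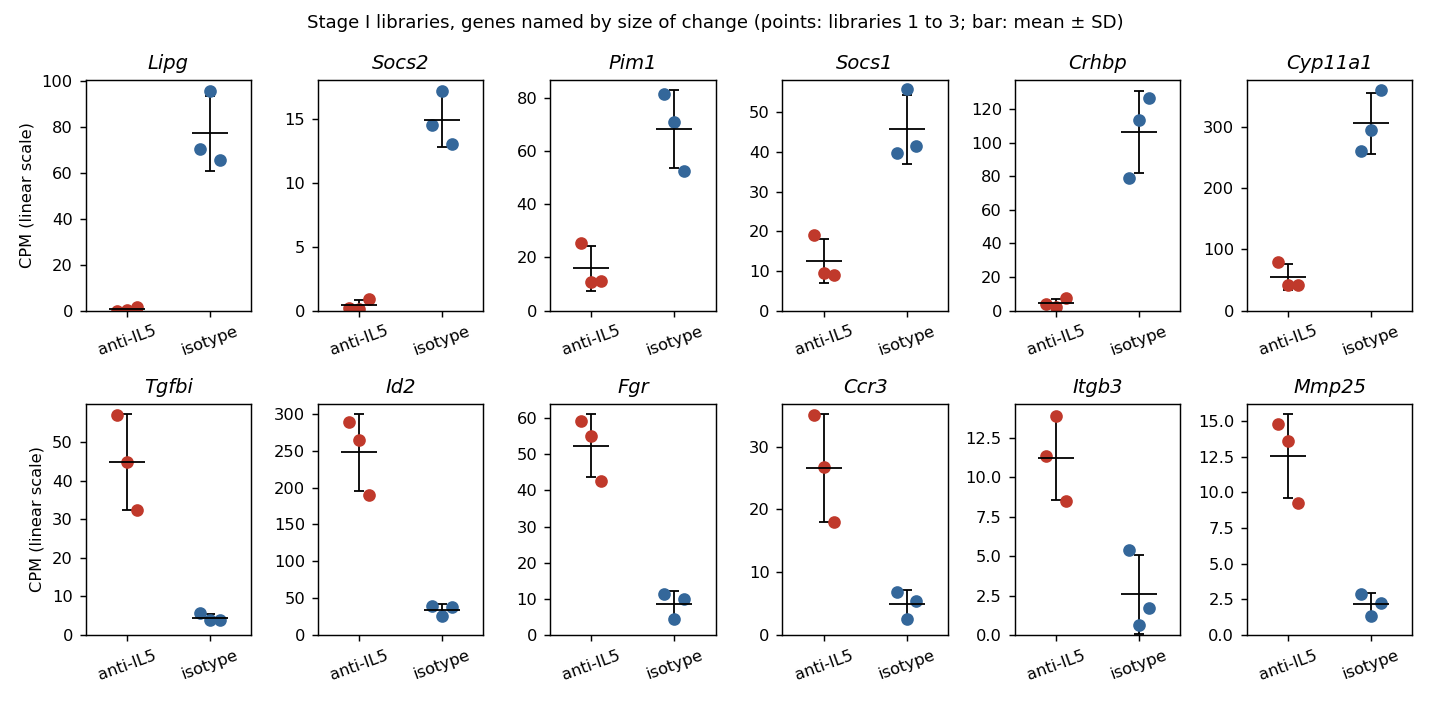
CPM on a linear scale for 12 genes with large changes, anti-IL5 on the left and isotype on the right of each panel; points are the 3 libraries of each group and the bar is their mean ± SD. In the upper row (Lipg, Socs2, Pim1, Socs1, Crhbp, Cyp11a1) all anti-IL5 libraries lie below all isotype libraries, and in the lower row (Tgfbi, Id2, Fgr, Ccr3, Itgb3, Mmp25) all lie above.

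The receptor side was little altered. None of the 18 genes for the IL-5 receptor chains, their kinases, phosphatases and STAT factors passed in edgeR with all libraries, while 3 on the high side and 1 on the low side had an unadjusted p under 0.05 (10.1% and 8.05% of all genes). Without isotype 3 there was 1 rise, DESeq2 called 1 gene lower and limma-voom called none. Il5ra had 233, 307.7 and 295.9 CPM under anti-IL5 and 252, 236 and 244 CPM under isotype, a log2 difference of 0.20 ± 0.18 (SE). Csf2rb averaged 144 ± 17.4 CPM under anti-IL5 and 166 ± 16.7 CPM under isotype (log2 -0.21 ± 0.19). The largest value on the low side belonged to Stat5a, at 26.2 ± 2.96 CPM under anti-IL5 and 41.8 ± 9.71 CPM under isotype (log2 -0.67 ± 0.22, adjusted p 0.0874).

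Most antiapoptotic genes did not pass, though the list leaned up. Of the 14 tested, 10 lay above 0 and 4 below, with a median log2 of 0.34. An unadjusted edgeR p under 0.05 was found upward in 4 and downward in 1, against 10.1% and 8.05% of all genes. No rise passed in edgeR with all libraries, while DESeq2 and limma-voom each called 1. Among 14 antiapoptotic genes, Bcl2a1a alone passed, with 1.30, 1.43 and 2.04 CPM under anti-IL5 and 5.18, 5.93 and 8.87 CPM under isotype (log2 -2.04 ± 0.38, edgeR adjusted p 0.0032). Bcl2a1a belongs to a cluster of near-identical copies between which reads can be split, and its relative Bcl2a1b stood at 18.9 ± 3.52 CPM under anti-IL5 and 18.6 ± 13.6 CPM under isotype. Mcl1 and Bcl2l1, the main survival proteins of many leukocytes, differed by log2 0.13 ± 0.21 and -0.07 ± 0.25. Of 18 tested proapoptotic genes 1 fell and none rose, beside 1.82% of all genes that fell. None of the list fell in any fit without 1 library, while DESeq2 and limma-voom each called 1 lower. Bcl2l11, which encodes the proapoptotic BH3-only protein Bim, had a log2 difference of 0.08 ± 0.47.

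Many genes of the endoplasmic reticulum fell. Of 40 tested genes of the unfolded protein response, 14 fell and none rose, beside 1.82% and 2.61% of all genes. Values lay below 0 for 38, and the median log2 change was -0.49. Without 1 library the number of falls ran from 8, without isotype 2, to 15, and 8 genes fell in every such fit: Edem1, Tmed9, Dnajc3, Pdia4, Txndc5, Manf, Pdia6 and Sdf2l1. Pdia4, a disulfide isomerase, had 346, 425 and 490 CPM under anti-IL5 and 819, 1041 and 846 CPM under isotype (log2 -1.10 ± 0.21, edgeR adjusted p 0.00347). Edem1, which hands misfolded glycoproteins to degradation, had 314.9, 305.9 and 285 CPM under anti-IL5 and 475, 527 and 500.2 CPM under isotype (log2 -0.73 ± 0.12, adjusted p 0.00077). The 2 groups were separate for both genes. Xbp1, the factor that switches on many of these genes, averaged 413 ± 23.8 CPM under anti-IL5 and 510 ± 16.3 CPM under isotype and did not pass (log2 -0.30 ± 0.13, adjusted p 0.226). Of 50 genes of protein translocation, glycosylation and vesicle traffic, 14 fell and none rose, between 4 and 15 without 1 library, fewest without isotype 2 or anti-IL5 1. Lman1, a cargo receptor for glycoproteins, had 115, 154 and 136 CPM under anti-IL5 and 270.4, 334 and 303.3 CPM under isotype (log2 -1.17 ± 0.19, adjusted p 0.000978). Sec61a1, the core of the translocation channel, had 208, 243 and 266 CPM under anti-IL5 and 413, 437 and 408 CPM under isotype (log2 -0.81 ± 0.15, adjusted p 0.00336). Kdelr3, which returns escaped chaperones, fell to 0.711, 1.05 and 0.487 CPM under anti-IL5, against 5.03, 8.95 and 8.77 CPM under isotype (log2 -3.31 ± 0.67, adjusted p 0.00594). Fkbp11, a secretory prolyl isomerase named for its size of change, had 17.8, 24.5 and 31.6 CPM under anti-IL5 and 82.4, 128 and 115 CPM under isotype (log2 -2.14 ± 0.32, adjusted p 0.0004).

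The endoplasmic reticulum stress response element is the site through which Atf6, with NF-Y, switches on chaperone genes. It was searched in its strict form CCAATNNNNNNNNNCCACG, on both strands, in windows from 250 bases before to 50 bases after gene starts in RefSeq (GRCm38.p6, the same assembly as mm10). Of the 41 listed unfolded protein response genes 33 had a window, and 9 of these (27.3%) held the element. The share was 37 of 27025 genes (0.137%) in the whole table and 20 of 9792 (0.204%) among genes tested at stage I. Of the 178 genes called lower that had a window, 5 held it (2.81%), and all 5 were members of this list: Pdia6, Dnajc3, Creld2, Calr and Hsp90b1. Pdia4, P4hb, Sdf2l1, Dnajb11, Edem1, Txndc5, Erp44 and Tmed9 of the list also fell, and their windows did not hold it. Hspa5, Canx, Syvn1 and Derl3 held it and were not called. Their windows are shown because these are the lowered genes that hold the element, written 5′ to 3′ on the gene's strand with the element in capitals, and the reverse complement in capitals where it lies on the other strand.
Pdia6 promoter, chr12:17266339-17266638, plus strand: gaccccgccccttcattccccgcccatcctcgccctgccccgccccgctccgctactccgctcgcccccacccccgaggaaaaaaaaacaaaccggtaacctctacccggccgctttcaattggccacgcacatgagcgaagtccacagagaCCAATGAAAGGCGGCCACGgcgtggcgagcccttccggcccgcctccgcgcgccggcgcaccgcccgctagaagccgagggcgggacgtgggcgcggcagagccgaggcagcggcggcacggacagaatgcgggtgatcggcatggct
Dnajc3 promoter, chr14:118937682-118937981, plus strand: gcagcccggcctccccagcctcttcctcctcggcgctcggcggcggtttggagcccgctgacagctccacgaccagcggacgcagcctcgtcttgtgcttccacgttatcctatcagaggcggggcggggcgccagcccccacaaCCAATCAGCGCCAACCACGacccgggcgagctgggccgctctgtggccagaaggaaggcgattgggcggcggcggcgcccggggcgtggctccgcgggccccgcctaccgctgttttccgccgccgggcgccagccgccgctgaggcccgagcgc
Creld2 promoter, chr15:88819396-88819695, plus strand: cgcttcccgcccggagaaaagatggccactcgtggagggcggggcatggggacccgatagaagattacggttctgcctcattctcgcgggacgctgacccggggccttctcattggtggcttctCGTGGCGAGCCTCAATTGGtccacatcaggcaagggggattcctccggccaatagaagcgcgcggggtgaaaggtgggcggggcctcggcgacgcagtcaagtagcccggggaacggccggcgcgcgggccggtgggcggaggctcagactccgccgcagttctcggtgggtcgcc
Calr promoter, chr8:84846882-84847181, minus strand: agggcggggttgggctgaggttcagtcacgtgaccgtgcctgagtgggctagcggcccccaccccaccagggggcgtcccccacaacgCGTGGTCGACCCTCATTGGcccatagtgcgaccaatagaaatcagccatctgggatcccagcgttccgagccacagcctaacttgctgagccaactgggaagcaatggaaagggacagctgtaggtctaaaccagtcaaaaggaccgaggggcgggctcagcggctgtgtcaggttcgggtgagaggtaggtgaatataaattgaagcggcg
Hsp90b1 promoter, chr10:86705395-86705694, minus strand: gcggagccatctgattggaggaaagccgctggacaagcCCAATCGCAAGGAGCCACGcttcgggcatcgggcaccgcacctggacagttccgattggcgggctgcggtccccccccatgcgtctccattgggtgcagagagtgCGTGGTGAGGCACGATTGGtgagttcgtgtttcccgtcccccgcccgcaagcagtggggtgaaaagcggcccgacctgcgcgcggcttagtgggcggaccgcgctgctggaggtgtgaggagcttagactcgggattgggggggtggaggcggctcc
The first element began 98 bases before the start in Pdia6, 105 before in Dnajc3, 126 before in Creld2, 162 before in Calr and 212 before in Hsp90b1, which held a second. A match describes the letters only. Pdia6, a disulfide isomerase, had 959, 1039 and 1057 CPM under anti-IL5 and 1489, 2034 and 1819 CPM under isotype (log2 -0.81 ± 0.16, edgeR adjusted p 0.00481). Dnajc3, a co-chaperone, had 231, 261 and 245 CPM under anti-IL5 and 361, 448 and 364 CPM under isotype (log2 -0.67 ± 0.12, adjusted p 0.00308). The other three were called less firmly. Creld2 (log2 -1.10 ± 0.23) lost its call without isotype 2, at an adjusted p of 0.0858. Calr, the chaperone calreticulin (log2 -0.87 ± 0.24), and Hsp90b1, the chaperone Grp94 (log2 -0.60 ± 0.16), kept theirs only without isotype 1, and their adjusted p reached 0.173 and 0.208.

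Genes of ribosome production were lower too. All 74 tested genes of ribosome biogenesis had log2 values below 0, as they also did with the other 2 scalings tried, with a median of -0.59. Of them 22 fell and none rose, beside 1.82% and 2.61% of all genes. In 59, all anti-IL5 libraries lay below all isotype libraries, a separation that 14% of all genes tested showed downward. The number of falls was 6 without isotype 2 and at most 10 without another library, but 36 with DESeq2, 38 in limma-voom and 44 in the stage I libraries alone. In the edgeR fits without 1 library, 5 genes fell in every one. Npm1, the nucleolar chaperone nucleophosmin, had 141, 168 and 171 CPM under anti-IL5 and 225, 290 and 260 CPM under isotype (log2 -0.69 ± 0.13, edgeR adjusted p 0.00436). Nolc1, a nucleolar scaffold, had 75.1, 74.3 and 69.6 CPM under anti-IL5 and 142, 138 and 117 CPM under isotype (log2 -0.86 ± 0.16, adjusted p 0.00346). Rrp1b, Rrs1 and Wdr43, all needed to assemble or process ribosomal RNA, were the others, at log2 -1.06 ± 0.20, -0.99 ± 0.20 and -0.90 ± 0.16. Heatr1, required for rRNA transcription, had the largest called fall of the list (19.0 ± 3.06 CPM under anti-IL5, 48.0 ± 5.87 CPM under isotype, log2 -1.34 ± 0.29), and lost its call without anti-IL5 3 (adjusted p 0.0502). The ribosomal proteins themselves had a median of -0.35 with all 80 below 0, and none passed in edgeR, although 35 had an unadjusted p under 0.05 in that direction, against 8.05% of all genes. DESeq2 called 7 of them lower, limma-voom 1 and edgeR without isotype 1 called 4. The E-box CACGTG, through which Myc acts, stood in the windows of 12 of the 64 list members that had one (18.8%). The share was 11.9% of the genes tested at stage I, 20.2% of all genes called lower and 8.09% of all genes in the table.

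The charging of tRNA, translation and amino acid supply followed the same direction. Of 23 aminoacyl-tRNA synthetase genes 5 fell (Gars, Tars, Yars, Kars and Hars, log2 -0.69 to -0.56), of 25 translation factors 5 fell, led by Eef1g (-0.83 ± 0.18) and Eif3b (-0.58 ± 0.13), and no member of either list rose. None of those 10 calls survived every removal of 1 library, and without isotype 2 none remained. Among 25 genes of amino acid and one-carbon supply 5 fell and none rose, beside 1.82% and 2.61% of all genes. Aldh18a1, which makes the precursor of proline, had 54.6, 69.2 and 64.9 CPM under anti-IL5 and 136, 187 and 147 CPM under isotype (log2 -1.31 ± 0.20, edgeR adjusted p 0.000603). It was the only one of the 13 named falls with a promoter window to hold the STAT palindrome TTCNNNGAA. Lipg, Socs2, Rpph1 and Srm had no window and were not searched. The palindrome stood in 8.99% of all falls, 9.09% of all rises, 8.46% of genes tested and 9.55% of genes in the table. It also stood in 2 of 16 named rises and in 4 of 17 genes of the Stat5 list, Cish and Bcl6 among them. Slc7a5, the large neutral amino acid carrier, had 23.1, 20.5 and 13.4 CPM under anti-IL5 and 76.8, 61.9 and 61.9 CPM under isotype (log2 -1.82 ± 0.42, adjusted p 0.0151), and lost its call without anti-IL5 2 or 3, at up to 0.0746. Srm, spermidine synthase and a known Myc target, had 163, 153 and 169 CPM under anti-IL5 and 388, 458 and 357 CPM under isotype (log2 -1.31 ± 0.20, adjusted p 0.000603). Together 7 chosen lists held 257 tested genes, of which 67 fell (26.1%) and none rose. They were ribosome biogenesis, tRNA synthetases, translation factors, unfolded protein response, secretory pathway, amino acid supply and nucleotide synthesis. The ribosomal proteins, with none of 80 called, were not among them, and the share depends on that choice. The 67 genes made up 29.8% of all falls, while the 257 genes were 2.07% of those tested. The number of falls was 20 without isotype 2, 41 without isotype 3, 26, 32 and 37 without anti-IL5 1, 2 and 3, 106 with DESeq2, 105 in limma-voom and 130 in the stage I libraries alone. Myc itself had 214, 185 and 258 CPM under anti-IL5 and 363, 317 and 298.9 CPM under isotype, separate groups whose difference did not pass (log2 -0.58 ± 0.32, adjusted p 0.358).

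**Figure D3:**
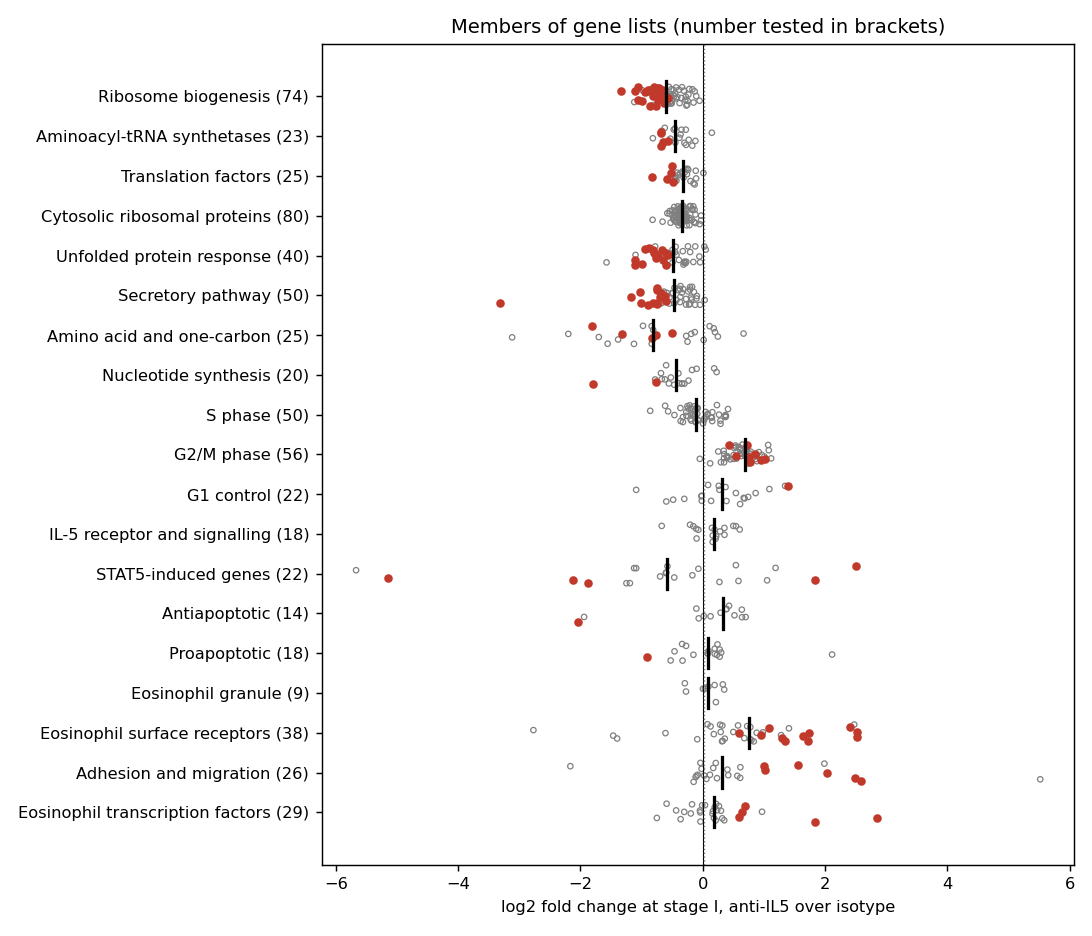
Log2 fold change at stage I, anti-IL5 over isotype, of each tested member of 19 gene lists, with the number tested in brackets. Filled red points passed an adjusted p of 0.05, open points did not, the black bar is the list's median and the dotted line the median of all genes, 0.02. Ribosome biogenesis lies wholly below 0 and G2/M genes almost wholly above it.

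Metabolic lists outside this set held few calls, beside the 1.82% of all genes that fell. Oxidative phosphorylation had 1 fall among 72 genes, the mitochondrial ribosome 2 among 77, glycolysis 1 among 26 and cholesterol and fatty acid synthesis 1 among 31, with no rise. Values below 0 numbered 66, 66, 13 and 29 in that order, with median log2 of -0.13, -0.22, -0.03 and -0.44. In cholesterol and fatty acid synthesis 11 genes had an unadjusted edgeR p under 0.05 downward, against 8.05% of all genes. The stage I libraries fitted alone gave 9 falls in that list. The called gene of glycolysis was Ldha (log2 -0.51 ± 0.14), that of lipid synthesis Scd2 (-1.06 ± 0.30) and that of oxidative phosphorylation Atp5a1 (-0.48 ± 0.14). Each lost its call without isotype 2 and other libraries, at an edgeR adjusted p of up to 0.217, 0.168 and 0.252. Of 32 lysosome and autophagy genes 3 fell, Gusb, Ctsz and Gla, none of them without isotype 2.

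Cell cycle genes did not move as one. Genes of G2 and mitosis were higher under anti-IL5 in 55 of 56 cases, with a median log2 of 0.69. In 47 of the 56 every anti-IL5 library was above every isotype library, which held for 14.4% of all genes in that direction. In edgeR 8 of them passed, beside 2.61% of all genes that rose. The number depended on the fit: 1 to 3 without 1 library, 23 in limma-voom and 39 when the stage I libraries were fitted alone. Ndc80, part of the kinetochore, was the one called in every fit without 1 library, with 105, 102 and 92.8 CPM under anti-IL5 and 43.5, 46.1 and 57.7 CPM under isotype (log2 1.02 ± 0.21, adjusted p 0.00572). Cdc20, the activator of the anaphase-promoting complex, had 437, 371 and 378 CPM under anti-IL5 and 180, 254 and 281 CPM under isotype (log2 0.73 ± 0.21, adjusted p 0.0456), and lost its call without any single library, at up to 0.168. None of the 50 replication genes of S phase passed in edgeR, and their median log2 was -0.11. Of 22 genes of G1 control, Cdkn2d passed. It encodes the p19 inhibitor of Cdk4 and Cdk6 and had 232, 194 and 161 CPM under anti-IL5 and 59.5, 76.0 and 87.3 CPM under isotype (log2 1.40 ± 0.16, adjusted p 2.05e-05). Of the Myc antagonists, Mxd3 had 65.7, 51.0 and 34.1 CPM under anti-IL5 against 11.0, 17.3 and 15.0 CPM under isotype (log2 1.802 ± 0.28, adjusted p 0.00057). Mxd1 had 74.4, 75.7 and 55.5 CPM under anti-IL5 and 46.1, 27.8 and 34.0 CPM under isotype (log2 0.93 ± 0.17, adjusted p 0.00318). Both were called in every fit without 1 library.

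The clearest rise was in Id2, which encodes a helix-loop-helix protein that blocks E proteins and lies at chr12:25093799-25096092. It had 289.5, 264 and 189.7 CPM in the anti-IL5 libraries and 38.8, 25.6 and 38.2 CPM in the isotype libraries (log2 2.85 ± 0.18, edgeR adjusted p 3.01e-09). Tgfbi, a matrix protein induced by TGF-beta, at chr13:56609586-56639359, had 57.2, 45.0 and 32.5 CPM under anti-IL5 and 5.69, 3.85 and 3.87 CPM under isotype (log2 3.31 ± 0.29, adjusted p 8.68e-07). Both separated the groups without overlap, with anti-IL5 3 the lowest of its group. Of 29 tested transcription factors of eosinophil development 5 rose and none fell, beside 2.61% and 1.82% of all genes. The 5 were Id2, Id1, Gfi1, Cebpd and Lmo2. Gfi1, a transcriptional repressor that acts in granulocyte development, averaged 108 ± 4.85 CPM under anti-IL5 and 66.9 ± 9.28 CPM under isotype (log2 0.69 ± 0.17, adjusted p 0.021). Cebpd averaged 116 ± 7.62 CPM against 74.3 ± 12.8 CPM (log2 0.64 ± 0.18, adjusted p 0.0453). Lmo2 rose by 0.59 ± 0.17 on the log2 scale. Gfi1 lost the call without isotype 2 or any 1 anti-IL5 library, Cebpd without any library but isotype 1, and Lmo2 without any single library, at an adjusted p of up to 0.144, 0.242 and 0.211. The lineage factors Gata1, Cebpe and Spi1 differed by log2 0.17 ± 0.16, -0.04 ± 0.16 and 0.22 ± 0.19.

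Several surface receptors of maturing eosinophils rose. Of 38 tested, 11 rose and none fell, beside 2.61% and 1.82% of all genes. Their median log2 was 0.75, and 33 were above 0. In the mature neutrophil list 16 of 17 tested genes were above 0, with a median of 0.77. The part of neutrophil RNA in the receptor rises was not tested. The number of receptor rises was 4 without isotype 2 and 6 without isotype 3 or anti-IL5 2. It was 7 without anti-IL5 1 or 3, 11 without isotype 1, 17 with DESeq2 and 6 in limma-voom. The 4 called in every such fit were Ccr3, Ccr1, Pirb and Lilra6. Ccr3, the eotaxin receptor that guides eosinophils into tissue, had 35.1, 26.7 and 17.9 CPM under anti-IL5 and 6.80, 2.50 and 5.38 CPM under isotype (log2 2.41 ± 0.41, edgeR adjusted p 0.00183). Ccr1, a further chemokine receptor, had 194, 159 and 104 CPM under anti-IL5 and 55.0, 23.4 and 58.0 CPM under isotype (log2 1.74 ± 0.27, adjusted p 0.000542). Pirb, an inhibitory receptor and one of the gated antigens, had 104, 67.2 and 59.3 CPM under anti-IL5 and 31.4, 16.6 and 25.4 CPM under isotype (log2 1.64 ± 0.23, adjusted p 0.00022). In all 3 the anti-IL5 1 library was the highest. Lilra6, of the activating paired receptors, rose by 2.52 ± 0.32 on the log2 scale, to 11.3 ± 1.00 CPM under anti-IL5 against 1.92 ± 0.683 CPM under isotype (adjusted p 8.94e-05). Reads of the Pira group can be split between near copies. Of the other gated antigens, Cd55, a complement inhibitor, fell to 49.5, 59.7 and 54.6 CPM under anti-IL5, against 109, 117 and 115 CPM under isotype (log2 -1.06 ± 0.21, adjusted p 0.00512). Pira2 was called higher at 1.66, 1.14 and 2.44 CPM under anti-IL5 and 0.592, 0.208 and 0 CPM under isotype (log2 2.53 ± 0.67, adjusted p 0.0352), and lost its call without isotype 2, isotype 3, anti-IL5 1 or anti-IL5 3 (up to 0.147). Cd200r3 was at most 0.381 CPM under anti-IL5 and 0.849 CPM under isotype and did not pass. Siglecf, Adgre1, Kit and Itgb1 did not pass, with log2 differences of 0.28 ± 0.14, 0.18 ± 0.26, -0.17 ± 0.44 and -0.04 ± 0.18.

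Some adhesion genes rose as well, 6 of 26 rising and none falling, beside 2.61% and 1.82% of all genes. At least 5 rose in every fit without 1 library. Fgr, a Src family kinase of integrin signalling, had 59.3, 55.2 and 42.7 CPM under anti-IL5 and 11.4, 4.48 and 9.90 CPM under isotype (log2 2.59 ± 0.32, edgeR adjusted p 5.15e-05). Itgb2, the beta 2 integrin chain, averaged 566 ± 38.4 CPM under anti-IL5 and 284 ± 31.9 CPM under isotype (log2 1.00 ± 0.17, adjusted p 0.00167). Itgb7, part of a gut-homing integrin, had 89.2, 56.8 and 66.7 CPM under anti-IL5 and 24.4, 14.1 and 33.4 CPM under isotype (log2 1.56 ± 0.27, adjusted p 0.00158). The groups stood apart for all 3. Itgb3 and Mmp25, a membrane-anchored metalloprotease, rose by log2 2.04 ± 0.43 and 2.49 ± 0.34. Itgam rose by 1.01 ± 0.23, a call lost without isotype 2, isotype 3, anti-IL5 1 or anti-IL5 2 (adjusted p up to 0.121). Mature neutrophils also use Fgr, Mmp25, Itgam and Itgb2. Their granule genes were higher in anti-IL5 2 and 3 than in the isotype libraries but not in anti-IL5 1, where Ngp stood at 986 CPM against 1146, 924 and 1005 CPM under isotype. In anti-IL5 1, Fgr, Mmp25, Itgb2 and Ccr1 were above all isotype libraries. So was Retnlg, a member of the mature neutrophil list, at 28.2 CPM against 4.44, 6.56 and 5.28 CPM under isotype. Without anti-IL5 1 the mature neutrophil list had 4 rises of 17 tested genes, against 1, Retnlg, with all libraries. The part of neutrophil RNA in the adhesion gene rises was not tested.

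Alox15, the lipoxygenase that eosinophils express strongly, had 2437, 1589 and 1310 CPM under anti-IL5 and 633, 539 and 530 CPM under isotype (log2 1.65 ± 0.24, edgeR adjusted p 0.000293). The cyclooxygenase gene Ptgs1 went the other way, at 48.9 ± 6.26 CPM under anti-IL5 and 98.7 ± 21.7 CPM under isotype (log2 -1.01 ± 0.23, adjusted p 0.0151), and lost its call without isotype 2, isotype 3, anti-IL5 1 or anti-IL5 3 (up to 0.102). None of the 9 tested granule protein genes passed. Their log2 differences ran from -0.29 ± 0.33 for Epx to 0.35 ± 0.57 for Ear10, and Prg2 was at 0.22 ± 0.28. Of 28 genes of the IL-33 receptor and NF-kB pathway 3 rose, beside 2.61% of all genes. Il1rn, the natural antagonist of interleukin 1, rose in every fit without 1 library. It had 9.59, 4.95 and 6.23 CPM under anti-IL5 and 0.887, 0.520 and 0.377 CPM under isotype (log2 3.45 ± 0.67, adjusted p 0.00538). Of 42 interferon-stimulated genes 2 rose and 1 fell, beside 2.61% and 1.82% of all genes. Ifitm6 rose (log2 1.93 ± 0.32, adjusted p 0.00148) and Irf1 rose (1.07 ± 0.22), though Irf1 did not without isotype 2 (adjusted p 0.0503). Ifitm1 fell by 2.23 ± 0.50 on the log2 scale, but not without isotype 2, isotype 3, anti-IL5 1 or anti-IL5 2 (up to 0.0842).

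Remaining genes named by size of change had varied roles. Among the rises was Retnlg, a resistin-like hormone known from neutrophils (31.1 ± 2.73 CPM under anti-IL5, 5.43 ± 1.07 CPM under isotype). Retnlg also averaged 165, 1914 and 3539 CPM in the isotype libraries of stages II, III and IV. Further rises were Serpinb2, an inhibitor of plasminogen activators (10.2 ± 3.93 and 1.95 ± 0.740 CPM), and S100a6, a calcium-binding protein (36.8 ± 11.8 and 8.59 ± 2.96 CPM). Dhrs3, which reduces retinaldehyde, rose by log2 2.16 ± 0.37, and the sulfotransferase gene Chst15 by 2.12 ± 0.41. Clec4a2, Ipcef1, Tmem71, Bank1 and Fmo5 rose by between 1.64 and 1.94. Among the falls, Tarm1, an activating myeloid receptor, averaged 3.44 ± 0.711 CPM under anti-IL5 and 10.8 ± 3.70 CPM under isotype, and Emb, a partner of lactate carriers, 73.1 ± 22.8 CPM under anti-IL5 and 209 ± 30.7 CPM under isotype. Rpph1, the RNA of ribonuclease P, Tspo2, the sulfhydryl oxidase Qsox2, the protease hepsin (Hpn), the nuclease Rexo2 and the mRNA export factor Mcm3ap fell by between 1.25 and 1.77 on the log2 scale. The library kit does not record strand, so reads of overlapping antisense genes cannot be told from those of the named gene.

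Stage I was then set beside the later stages, each measured in its own libraries. At stage II, 70 genes rose (0.565%) and 147 fell (1.19%) under anti-IL5, at stage III 163 (1.32%) and 626 (5.05%), and at stage IV 23 (0.186%) and 107 (0.864%). Of the 323 rises of stage I, 43 were also called higher at stage II, which is 13.3% of them and 61.4% of the 70, and 58 at stage III (18.0% and 35.6%). Of the 225 falls, 78 were called lower at stage II (34.7% and 53.1% of the 147) and 97 at stage III (43.1% and 15.5% of the 626). At stage IV the shared calls were 5 rises and 20 falls. Socs2 fell at all 4 stages, by log2 5.15, 6.75, 4.34 and 3.72, all with an edgeR adjusted p under 0.05. Lipg also fell at every stage, to 0.524 CPM or less at stages II to IV under anti-IL5, against 178, 171 and 3.83 CPM under isotype.

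**Figure D4:**
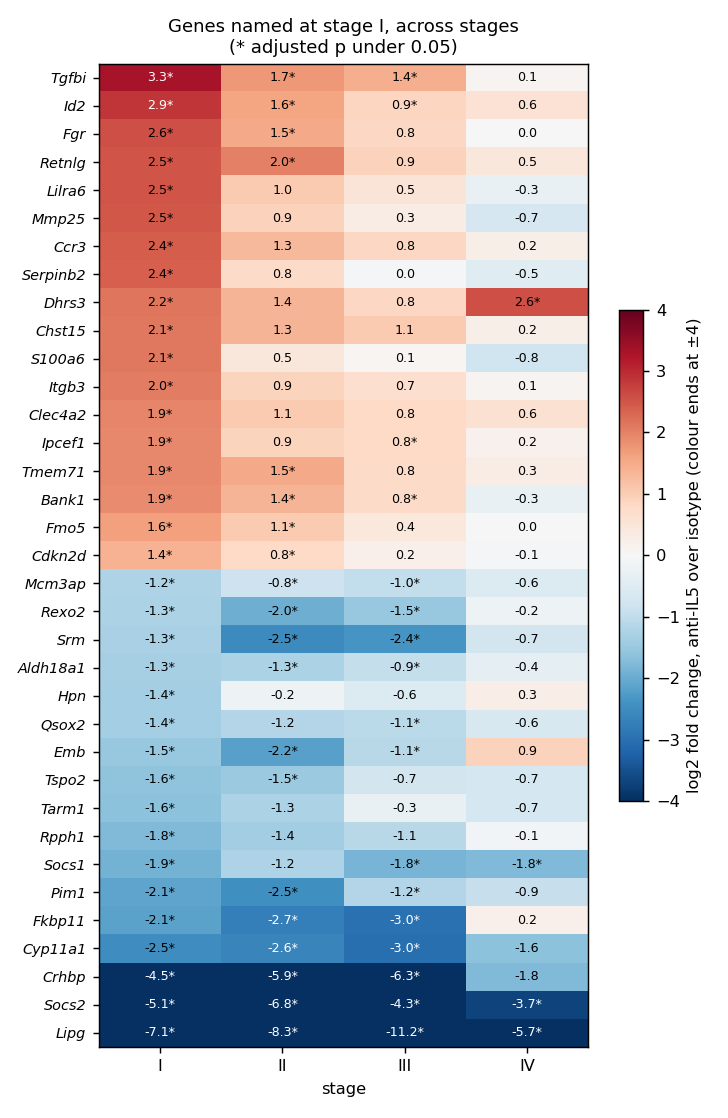
Log2 fold change, anti-IL5 over isotype, at stages I to IV for the 35 genes named at stage I by size or p, ordered by their stage I value; an asterisk marks an adjusted p under 0.05 at that stage. Where anti-IL5 libraries are at or near 0, as for Lipg, the fitted value depends on the prior count. The genes were chosen for their stage I values, and at stage IV 1 of the 18 rises, Dhrs3, has an asterisk.

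Tests of the difference between stages showed where stage I stood apart. Against stage II no gene differed in edgeR after adjustment, while 2.53% of genes had an unadjusted p under 0.05, DESeq2 called 3 and limma-voom none. Stage II has 2 libraries a group. Against stage III, 49 genes differed, 45 with a higher effect at stage I (0.363%) and 4 with a lower one (0.0323%). At an unadjusted p under 0.05 stage III differed in 10.1% of genes and stage IV in 10.3%. After adjustment stage IV differed in 115, of which 106 were higher at stage I (0.856%) and 9 lower (0.0727%). Without 1 library, 10 to 65 genes differed from stage III and 60 to 127 from stage IV, with the fewest without stage III anti-IL5 3 and without stage I isotype 2. Between 10 and 42 of the 49, and between 60 and 96 of the 115, were called again. Genes named for the size of their stage I rise were chosen on 1 term of this difference, so theirs are given as values. Mmp25 differed from stage IV by 3.17 on the log2 scale, Tgfbi by 3.20, Fgr by 2.599 and Id2 by 2.29. Id1 rose at stage I and fell at stage IV (log2 1.83 ± 0.27 and -1.45, a difference of 3.28). Of 56 G2/M genes 5 had a higher effect at stage I than at stage III, where the list's median was -0.71 and 6 members fell. Fbxo5, an inhibitor of the anaphase-promoting complex, rose by 0.78 ± 0.19 at stage I and fell by 1.06 at stage III, a difference of 1.84. Its stage I call was lost without isotype 1, isotype 3, anti-IL5 1 or anti-IL5 2, at an adjusted p of up to 0.0962. Cpa3, a mast cell protease also found in eosinophil precursors, differed by -0.06 ± 0.33 at stage I and by -4.18 at stage III. In the unfolded protein response list 1 gene, Xbp1, differed from both stages, falling by 1.31 at stage III and 1.46 at stage IV. None of the ribosome biogenesis genes differed between stages I and III, and 1 of 74, Npm1, did between I and IV.

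To place the stage I genes on the course of maturation in IL-33 treated mice, the isotype libraries of stages II and IV were compared with each other. They are on neither side of the stage I contrast, although they share its fit, scaling and estimate of spread. Of the 323 genes that anti-IL5 raised at stage I, 205 (63.5%) were higher at stage IV than at stage II and 54 (16.7%) lower, beside 27.5% and 29% of all genes tested. Of the 225 that fell, 130 (57.8%) were lower at stage IV than at stage II and 37 (16.4%) higher. The median log2 change between the 2 isotype stages was 1.02 for the rises, -0.75 for the falls and -0.04 for all genes. Ccr3, for instance, averaged 50.9 CPM in isotype stage II, 443 in stage III and 2719 in stage IV, and Pirb 161, 748 and 1105 CPM. Pdia4 averaged 441, 268 and 210 CPM at the same stages and Npm1 142, 61.5 and 52.4 CPM. Some large changes ran against that course. Mxd3, raised by anti-IL5, averaged 55.2 CPM in isotype stage II and 0.289 CPM in stage IV, and Ifitm6 and Gfi1, both raised at stage I, were lower at stage IV by 4.03 and 3.86 on the log2 scale. Bcl2a1a, lowered by anti-IL5, was higher at stage IV by 2.81 on the log2 scale. With library totals in place of scaled library sizes the median of all genes between these 2 isotype stages moved by -0.28, to -0.32, with 2522 genes higher and 4433 lower instead of 3406 and 3594.

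**Figure D5:**
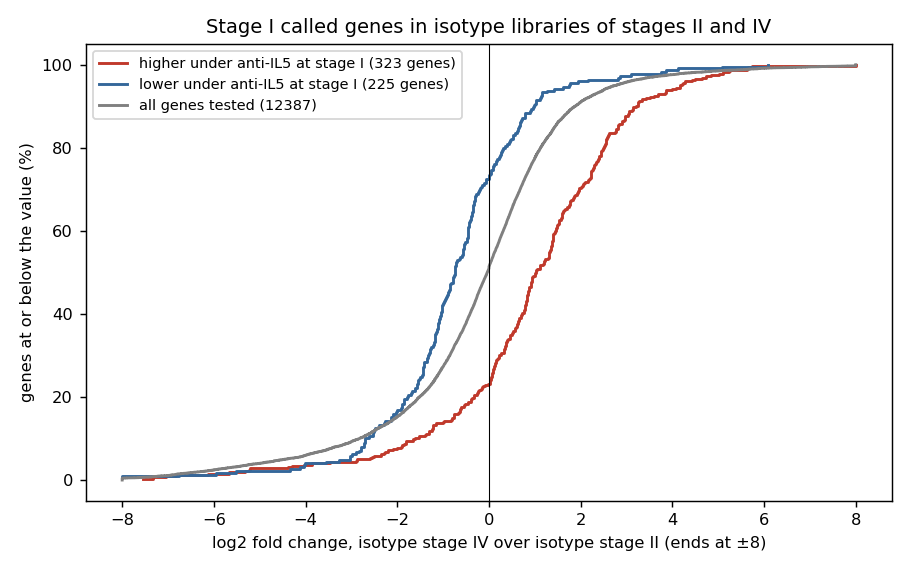
Cumulative share of genes (vertical axis, %) at or below each log2 fold change of isotype stage IV over isotype stage II (horizontal axis). The curve of the 323 genes raised by anti-IL5 at stage I lies to the right of that of all 12387 genes, with a median of 1.02, and the curve of the 225 lowered genes lies to the left over most of its range, with a median of -0.75.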

How the data were processed

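RNA from sorted bone marrow cells of stages I to IV was made into libraries with a SMART-Seq v4 kit, per the labels' protocols, and the submitters' processing notes name STAR 2.6.1a, mm10 and DESeq2 without saying what each was used for. How reads were assigned to genes, with which annotation and with or without strand, is not given in the sources used here. The authors deposited raw counts per gene, 1 table per library. The lines for reads on no feature (20.8% under anti-IL5 and 18.9% under isotype on average, as a share of all lines' counts) and ambiguous reads (2.08% and 2.07%) were left out of library sizes and tests.

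Counts of all 22 libraries, in 8 groups of stage and treatment, were fitted together in edgeR 4.0.16 (R 4.3.3) with TMM scaling, a low-count filter (filterByExpr, minimum count 10) and the robust quasi-likelihood test with 14 residual degrees of freedom. P-values were adjusted by Benjamini-Hochberg over the 12387 genes tested and called under 0.05. The SE is the log2 change divided by the square root of the test statistic. CPM use TMM-scaled library sizes. A count of 3, the limit that 0 counts allow, equals 0.286 to 0.355 CPM in the anti-IL5 and 0.222 to 0.312 CPM in the isotype libraries of stage I, for counting error only. Differences between stages were tested as contrasts in the same fit, and quality measures by exact permutation tests over libraries. The script was tested on simulated counts. No libraries of the same group were duplicates of each other; pairs across groups were not compared.

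Genes named by size were the 15 largest rises and falls, and the 6 smallest p in each direction, among genes called in all 6 fits without 1 stage I library, with no overlap and at least 10 CPM in the higher group. Called members of 41 gene lists were also named, though not all of them. One result is not reported here. The comparison, the lists and the tests were chosen with earlier results of these data known. Alternatives were RLE scaling, library totals, no low-count filter, DESeq2 1.42.0, limma-voom (limma 3.58.1), the replicate number as a block, the libraries of the compared stages alone, and leaving out each library.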

Additional observations from a re-analysis of the deposited data

Results flagged for a closer look

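The genes below had an anti-IL5 effect at stage I that differed from the effect at stage III or IV by edgeR's quasi-likelihood test of the difference (Benjamini-Hochberg adjusted p under 0.05). Values are the stage I log2 change minus that of the later stage, so a positive one means a higher effect at stage I. Genes named for a large stage I change were chosen on 1 term of this difference. Against both stages III and IV, Tgfbi differed by 1.87 and 3.20, Id2 by 1.99 and 2.29, Lilra6 by 2.01 and 2.81, Mmp25 by 2.21 and 3.17 and S100a6 by 2.02 and 2.90. Fmo5 differed by 1.23 and 1.66, Cdkn2d by 1.19 and 1.49 and Klrb1f, a lectin-like receptor gene, by 1.40 and 2.11. Adam19, a membrane metalloprotease gene, differed by 5.08 and 5.91. It had 7.46, 6.76 and 2.14 CPM in the anti-IL5 libraries and at most 0.283 CPM in the isotype libraries, at or under a count of 3, so its fitted values depend on the prior count.

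Against stage IV alone, positive differences were those of Fgr (2.599), Retnlg (2.07), Serpinb2 (2.85), Ipcef1 (1.78), Tmem71 (1.63), Bank1 (2.18) and Id1 (3.28). Negative ones were those of Emb (-2.43), Hpn (-1.64), Rexo2 (-1.08), Npm1 (-0.82), Shmt1, a one-carbon enzyme gene (-3.87), and Ctps, the CTP synthase gene (-3.40). Against stage III alone, Cpa3 differed by 4.12, Tmem215 by 2.89, Mxd3 by 2.75 and Fbxo5 by 1.84, all positive. Man1a, a mannosidase gene, differed by -2.05 and the sialyltransferase gene St6galnac4 by -1.04. Wdr77, a partner of the arginine methyltransferase Prmt5, was the gene with negative differences from both stages, -1.33 and -0.93. It had 62.2, 62.4 and 74.2 CPM under anti-IL5 and 95.1, 106 and 100.2 CPM under isotype at stage I (log2 -0.60 ± 0.16), and a log2 change of 0.73 at stage III.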

How the results depend on the processing

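No called log2 change of a named gene reversed its sign under an alternative, but the balance of calls at stage I turned from more rises to more falls in limma-voom and in the stage I libraries alone. At stage I, the calls in total, higher and lower were 979, 512 and 467 with DESeq2, 1123, 532 and 591 when the stage I libraries were fitted alone, and 771, 344 and 427 in limma-voom, against 548, 323 and 225. The higher share of calls was 44.6% in limma-voom and 47.4% in the stage I libraries alone, against 58.9%. Of the 548 genes, 508 were also called with RLE scaling, 537 with DESeq2, 458 with limma-voom and 181 without isotype 2. Without 1 library the ranges were 184 to 465, 122 to 283 and 62 to 182. For the difference from stage II, DESeq2 called 3 genes, 2 higher and 1 lower, and fits without 1 library 0 to 1, the single one, a higher effect, without stage I anti-IL5 3. For stage III, the totals were 84 with library totals, 252 with DESeq2, 97 in limma-voom, 95 with the replicate block and 199 for the compared stages alone. The higher calls were 80, 228, 93, 89 and 187 in that order, and the lower calls 24 with DESeq2 and 12 for the stages alone. Without 1 library they ran from 10 to 65, 9 to 62 and 1 to 4. For stage IV, the totals were 258 with DESeq2, 70 in limma-voom and 175 for the stages alone. The higher calls were 196 with DESeq2 and 67 in limma-voom, and the lower 62, 3, 16 with the replicate block and 32 for the stages alone. Without 1 library they ran from 60 to 127, 59 to 116 and 1 to 11. The cause of these shifts was not tested. Replicate numbers did not pair the libraries by the criterion set: same-numbered anti-IL5 and isotype libraries of stage I had deviations correlated at 0.0531, 0.0838 and 0.0635, none above 0.1, although each correlated best with its own number, a hint from the data and not the design. With the replicate block 726 genes were called at stage I, 430 of them higher, and 542 were shared.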
